A study of Homo sapiens with 2 samples.

Results

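The regions described here are the anti-Flag CUT & Tag peaks of chromosome 20 in TFK-1 cells, chosen by their chromosome in the deposited peak tables and by nothing else. They were 333 of the 8043 peaks of the LV-HOXA5 library (4.14%) and 25 of the 635 peaks of the LV-HOXA5-NC library (3.94%). A region is a peak only if its fragments passed the peak caller at a q-value of 0.05, so the peaks were selected on their height over the surrounding signal. The weakest LV-HOXA5 peak of the chromosome had a −log10 q-value of 1.32 and the lowest pileup, which counts the fragments stacked at the summit, was 8. In LV-HOXA5-NC the lowest −log10 q-value was 2.14 and the lowest pileup was 5. Regions below the threshold are not listed in the tables, so no value can be given for those just outside it.

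CUT & Tag uses an antibody to bring a transposase to a protein on chromatin, where it cuts the DNA and attaches sequencing adapters. TFK-1 is a cell line of extrahepatic cholangiocarcinoma, a cancer of the bile duct outside the liver. The LV-HOXA5 cells carried a lentivirus for Flag-tagged HOXA5, so in them the protein was overexpressed and not at its natural level. The LV-HOXA5-NC cells carried a negative-control lentivirus, and both lines had been selected with puromycin. For each condition 1 library was made from 1000000 cells, so differences between the conditions have no replicate behind them. The fragment totals were 15778555 for LV-HOXA5 and 1948734, or 12.4% of that, for LV-HOXA5-NC, so depth alone could leave a region uncalled in the smaller library.

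HOXA5 is a transcription factor of the homeobox family, whose DNA-binding homeodomain recognises short sequences built on the letters TAAT. Chromosome 20 is a small, gene-rich metacentric chromosome, and its long arm is often gained in cancers of the digestive tract. Its centromere and the flanking stretches consist of repeated DNA, which the GRCh38 assembly represents in part by modelled satellite arrays, so short fragments from many copies can be placed on a few positions there. Signal at gene promoters, signal in this repeated region and a regional gain of DNA can each change the number of peaks or the local background. Peak number, gene-end peaks and local background were therefore tabulated along the chromosome. None of these measures a gain of DNA by itself.

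Of the peaks at gene ends, those over transcription start sites can be shown with their sequence. Among the 10 peaks of highest fold enrichment within 1 kb of a protein-coding gene end, 5 covered a start listed in the RefSeq promoter table (GRCh38.p14), and the 250 bases before each of these starts are given 5′ to 3′ to show the promoters at the highest signal near protein-coding gene ends. The peaks covered the whole stretch of PCNA and ELMO2 and a part of that of SEC23B, ZNF337 and FLRT3. Capitals mark TAAT (the homeodomain core), GGGCGG (a GC box), CCAAT (the CCAAT box) and CCGGAA (the core of ETS factors), on either strand. The PCNA stretch is chr20:5126623-5126872 on the minus strand, the SEC23B stretch chr20:18507298-18507547 on the plus strand and the ELMO2 stretch chr20:46406616-46406865 on the minus strand. The ZNF337 stretch is chr20:25696854-25697103 and the FLRT3 stretch chr20:14337613-14337862, both on the minus strand.
PCNA: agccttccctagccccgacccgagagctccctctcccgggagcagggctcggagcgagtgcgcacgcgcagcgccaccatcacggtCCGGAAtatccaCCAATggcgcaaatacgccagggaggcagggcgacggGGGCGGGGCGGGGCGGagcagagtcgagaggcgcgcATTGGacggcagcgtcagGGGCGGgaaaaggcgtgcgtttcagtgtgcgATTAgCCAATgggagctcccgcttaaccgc
SEC23B: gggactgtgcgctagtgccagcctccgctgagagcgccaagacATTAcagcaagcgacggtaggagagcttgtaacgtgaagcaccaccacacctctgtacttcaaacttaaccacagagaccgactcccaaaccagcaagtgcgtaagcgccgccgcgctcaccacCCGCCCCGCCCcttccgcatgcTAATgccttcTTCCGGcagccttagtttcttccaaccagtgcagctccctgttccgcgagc
ELMO2: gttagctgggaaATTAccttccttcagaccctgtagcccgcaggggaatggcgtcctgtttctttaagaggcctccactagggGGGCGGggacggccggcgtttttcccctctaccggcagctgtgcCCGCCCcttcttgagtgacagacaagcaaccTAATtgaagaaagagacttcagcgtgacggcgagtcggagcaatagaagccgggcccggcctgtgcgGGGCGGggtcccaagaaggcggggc
ZNF337: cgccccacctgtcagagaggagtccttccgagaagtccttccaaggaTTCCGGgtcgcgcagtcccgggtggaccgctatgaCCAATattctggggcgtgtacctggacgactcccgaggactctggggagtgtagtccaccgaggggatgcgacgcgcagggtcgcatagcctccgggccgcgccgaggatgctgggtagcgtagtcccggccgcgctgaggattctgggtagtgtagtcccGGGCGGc
FLRT3: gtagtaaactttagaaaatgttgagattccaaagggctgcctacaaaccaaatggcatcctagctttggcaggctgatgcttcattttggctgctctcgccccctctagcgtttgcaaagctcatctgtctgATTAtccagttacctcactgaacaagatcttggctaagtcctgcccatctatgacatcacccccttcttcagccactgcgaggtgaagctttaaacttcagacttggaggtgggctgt

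The PCNA promoter was the richest in the letters searched. It held CCAAT at 3 positions, GGGCGG at 4, and TAAT and CCGGAA at 1 each, with a GC content of 68.4%. The SEC23B stretch held TAAT at 2 positions, GGGCGG at 2 and CCGGAA at 1. The ELMO2 stretch held TAAT at 2 positions and GGGCGG at 3, and the ZNF337 stretch held no TAAT. FLRT3 stood apart from the others, since its stretch held TAAT at 1 position and none of the other letters, with a GC content of 47.6%. The only TAAT of the FLRT3 stretch lay outside its peak. Also outside the peak of their gene were the first TAAT of the SEC23B stretch and the CCGGAA of the ZNF337 stretch. A match of these letters is a description and not a measured binding site.

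The peaks of chromosome 20 were spread very unevenly, and most of the unevenness came from the middle of the chromosome. Between ZNF337, the last protein-coding gene of the short arm, and LOC124904970, a predicted gene that comes first on the long arm, lies a stretch with no protein-coding gene (chr20:25696854-30813426). It is called the central interval here, and it spans 5.12 Mb of the 64.2 Mb from the first to the last gene of the chromosome. This interval held 125 of the 333 LV-HOXA5 peaks, a share of 37.5% (95% interval 32.3 to 43), while the short arm held 92 and the long arm 116. All intervals on shares are exact binomial (Clopper-Pearson) intervals, cover counting error only and do not treat peaks as replicates.

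Peak density per Mb separated the central interval from both arms and did not separate the arms from each other. The central interval had 24.4 peaks per Mb, the short arm 3.59 and the long arm 3.46. Per 100 protein-coding genes the short arm, with 180 genes, had 51.1 peaks and the long arm, with 357 genes, had 32.5. The median distance between neighbouring summits was 107 kb on the short arm and 109 kb on the long arm, and 15.3 kb in the central interval.

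In steps of 5 Mb from the end of the short arm, the bin from 25 to 30 Mb stood far above the others. It held 125 LV-HOXA5 peaks and 9 protein-coding genes, whereas the other 12 bins held between 6 and 27 peaks, with a median of 18. The bin from 0 to 5 Mb had the most protein-coding genes, 81, and 21 peaks. The bin from 10 to 15 Mb had 15 protein-coding genes and 24 peaks. The number of peaks therefore did not follow gene number: over the 12 bins without the one from 25 to 30 Mb, Spearman's rho between peaks and protein-coding genes was 0.040. For gene-end peaks alone it was 0.410, and for the other peaks -0.150. The bins share a library and its depth, and these values only describe them.

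**Figure D1:**
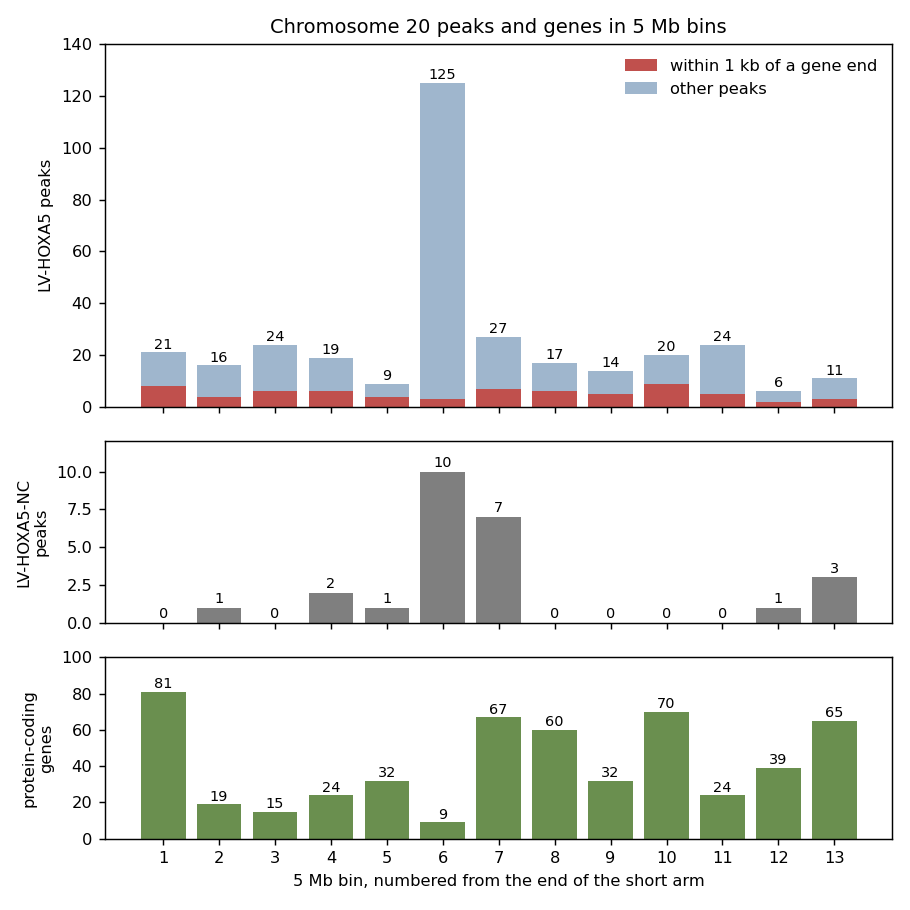
LV-HOXA5 peaks (top, peaks within 1 kb of a gene end in red and other peaks in blue), LV-HOXA5-NC peaks (middle) and protein-coding genes (bottom) in 5 Mb bins of chromosome 20, numbered from the end of the short arm. With 9 protein-coding genes, bin 6 held 125 of 333 peaks in LV-HOXA5 and 10 of 25 in LV-HOXA5-NC, and bin 1 held 81 protein-coding genes with 21 LV-HOXA5 peaks.

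Peaks at gene ends were a minority on chromosome 20. Within 1 kb of the start or end of any gene lay 68 of the 333 LV-HOXA5 peaks, 20.4% (95% interval 16.2 to 25.2), against 34.9% of the whole list. Each gene-end share was read beside the share of bases within the same distance, which was 7.36% on chromosome 20 and 6.21% on the other autosomes. Of the summits, 19.5% on chromosome 20 and 34.4% on the other autosomes lay there, which is 2.65 and 5.53 times the share of bases. In that share of bases chromosome 20 was thus not short of gene ends, and its peaks lay at them less often than peaks elsewhere did.

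The central interval accounted for part of this low share, and the arms had a low share as well. In the central interval 3 of 125 peaks were at a gene end (2.40%, 95% interval 0.498 to 6.85). Outside it, 28 of 92 short-arm peaks (30.4%, 21.3 to 40.9) and 37 of 116 long-arm peaks (31.9%, 23.6 to 41.2) were at a gene end. The arms did not differ beyond counting error. In the arms of the other autosomes the share was 42.3% (41.1 to 43.5), so the 65 of 208 arm peaks of chromosome 20 (31.2%, 25 to 38.0) lay below it.

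Among the 22 autosomes the arms of chromosome 20 had the lowest gene-end share. Chromosome 18 came next with 32.3%, well inside the interval of chromosome 20, so the lowest place is not resolved, and chromosome 19, the most gene-dense autosome, was highest with 61.8%. Per 100 protein-coding genes, the arms of chromosome 20 had 12.1 gene-end peaks, which placed it 16th of the 22, and the median of the other autosomes was 14.3. Counted over all arm peaks instead, chromosome 20 had 38.7 peaks per 100 protein-coding genes against a median of 35.4, and was 8th. Its low share therefore went with a somewhat low number of gene-end peaks and a somewhat high number of other peaks.

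**Figure D2:**
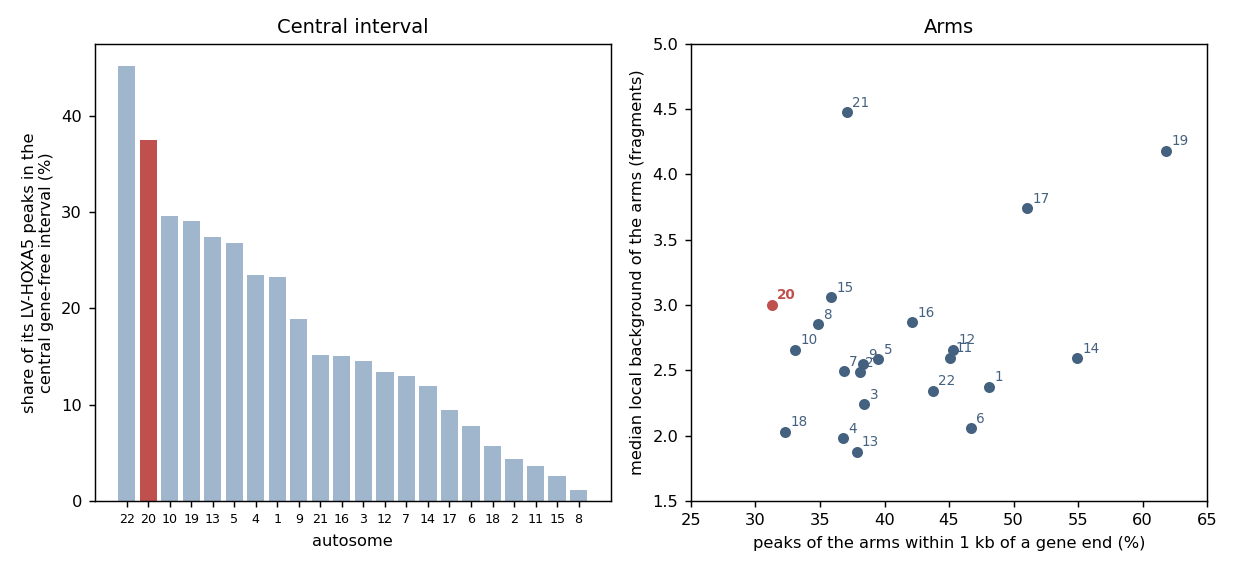
Left, share of the LV-HOXA5 peaks of each autosome that lay in its central gene-free interval (%), sorted, with chromosome 20 in red. Right, for the arms of each autosome (labelled points), the share of peaks at a gene end, within 1 kb, in LV-HOXA5 (%) against the median local background (fragments). Chromosome 20 was 2nd highest in the central share with 37.5% and the lowest in the gene-end share of the arms with 31.2%, at a median background of 3.00.

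Genes, counted in place of peaks, gave chromosome 20 a place near the rest of the genome. Of its 537 protein-coding genes, 64 had an end within 1 kb of an LV-HOXA5 peak, 11.9% (95% interval 9.30 to 15), beside 13.0% of all protein-coding genes. These 64 genes were reached by 51 peaks, of which 13 lay near more than 1 protein-coding gene. Divergent neighbours shared a peak at PCNA and CDS2, at MCM8 and TRMT6 and at AURKA and CSTF1. These pairs were picked after their values were seen, and they show that a gene with such a peak is not always separate from its neighbour in these counts.

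The highest peak at a protein-coding gene end lay over the start of PCNA, the sliding clamp of DNA replication. It covered chr20:5126583-5126989 with a pileup of 42 (95% Poisson interval 30.3 to 56.8) and a fold enrichment of 7.38. The same peak lay within 1 kb of CDS2, an enzyme of CDP-diacylglycerol synthesis. Next came the peak 45 bases upstream of RALY, which encodes an RNA-binding protein of the hnRNP family, at chr20:33993239-33993866 with a pileup of 24 and a fold enrichment of 7.1. The peak over the start of SEC23B, a coat protein of vesicles that leave the endoplasmic reticulum, had a pileup of 31 and a fold enrichment of 6.87. These 3 peaks had no overlapping LV-HOXA5-NC peak.

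The other 7 of the 10 peaks of highest fold at protein-coding gene ends ranged from 6.71 to 5.50. The peak at CFAP61, a gene of cilia and flagella that overlaps the splicing factor gene CRNKL1, had a pileup of 19 and a fold enrichment of 6.71. The peak beside ADNP, a homeodomain protein, had a pileup of 20 and a fold enrichment of 6.20. The peak over the start of ELMO2, a partner of DOCK proteins in cell migration, had a pileup of 20 and a fold enrichment of 6.13. UBE2C, the ubiquitin-conjugating enzyme of the anaphase-promoting complex, had the higher pileup of 29 with a fold enrichment of 5.83, since its local background was 4.15 fragments. The same peak lay within 1 kb of DNTTIP1. The zinc finger gene ZNF337 (pileup 17), the cell adhesion gene FLRT3, which lies inside MACROD2 (pileup 15), and ACTR5, an actin-related subunit of the INO80 remodeller (pileup 15), completed the set. Pileups of 15 to 20 have Poisson intervals that overlap each other, so the order of these genes is not resolved.

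Chromosome 20 carries genes of dividing cells and clusters of genes for secreted defence proteins, and peaks were counted at the ends of both kinds. The lists were drawn up with earlier results of these data known, and no difference between them was tested. From 8 lists with 141 different genes of chromosome 20, all of which matched, 22 had an end within 1 kb of an LV-HOXA5 peak. In the list of cell cycle, mitosis and DNA replication, 9 of 23 genes did (39.1%), and in the list of RNA processing, translation and the proteasome 9 of 24 did (37.5%). Over all protein-coding genes the share was 13.0%, and over those of chromosome 20 it was 11.9%. Some listed genes share a peak within a list or between the lists. The list shares describe the lists as drawn, and their difference from the other genes was not tested. No gene of the lists had an LV-HOXA5-NC peak at an end. Of all 25 LV-HOXA5-NC peaks of the chromosome, only 1 lay within 1 kb of any gene end.

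Among the cell cycle genes, PCNA and CDS2 had the shared peak with a pileup of 42, UBE2C a pileup of 29, and AURKA, the mitotic kinase Aurora A, a pileup of 18. CDS2 is a lipid enzyme rather than a cell cycle gene, and its only peak was the one over the start of PCNA. Among the RNA genes, RALY had a pileup of 24, ZNFX1, an RNA helicase, 22, and RPN2 21. RPN2 is a subunit of the oligosaccharyltransferase of the endoplasmic reticulum and takes no part in RNA processing. Both are counted above. Without them, a choice made after the data were seen, the lists had 8 of 22 genes (36.4%) and 8 of 23 genes (34.8%) with a peak. The share of all protein-coding genes was 13.0%. CSTF1, a factor of mRNA 3′ end cleavage, had 18 through the peak it shares with AURKA. The remaining 14 cell cycle genes and 15 RNA genes had no peak within 1 kb of an end. Among them, CDC25B had a peak with a pileup of 24 at a start listed inside the gene, with its summit at -259 bases from it.

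Developmental transcription factors and known cancer genes of the long arm lay near the 13.0% of all protein-coding genes, so their counts do not set these lists apart. Of 28 transcription factor genes 4 had a peak at an end (14.3%, 95% interval 4.03 to 32.7). They were ID1, an inhibitor of bHLH factors, with a pileup of 29, ADNP and the zinc finger gene GZF1 with 20 each, and the zinc finger gene ZFP64 with 11. The ID1 peak lay 856 bases from that gene and closer, at 126 bases, to the microRNA gene MIR3193. Of 20 cancer genes, 2 had a peak at an end (10.0%, 1.23 to 31.7), AURKA with a pileup of 18 and the topoisomerase gene TOP1 with 14. Of the factors of liver and gut lineages in the former list, FOXA2 and HNF4A had none within this distance, and of the cancer genes CYP24A1 had none. ZNF217 had none at its ends and a peak at a start listed inside the gene.

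In the 4 lists of secreted proteins no gene had a peak at an end. They were 11 cystatin genes, 13 beta-defensin genes, 10 genes of the BPI fold family and 18 genes of the WAP four-disulfide core cluster, which encode protease inhibitors and antimicrobial proteins of epithelia and the male tract. Each list alone is small, with upper 95% bounds of 28.5%, 24.7%, 30.8% and 18.5%, all above the 13.0% of all protein-coding genes. Pooled after the data were seen, they gave 0 of 52 genes, with an upper bound of 6.85%. This bound counts each gene as separate, although many of them are neighbours in clusters, and the difference from 13.0% was not tested.

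**Figure D3:**
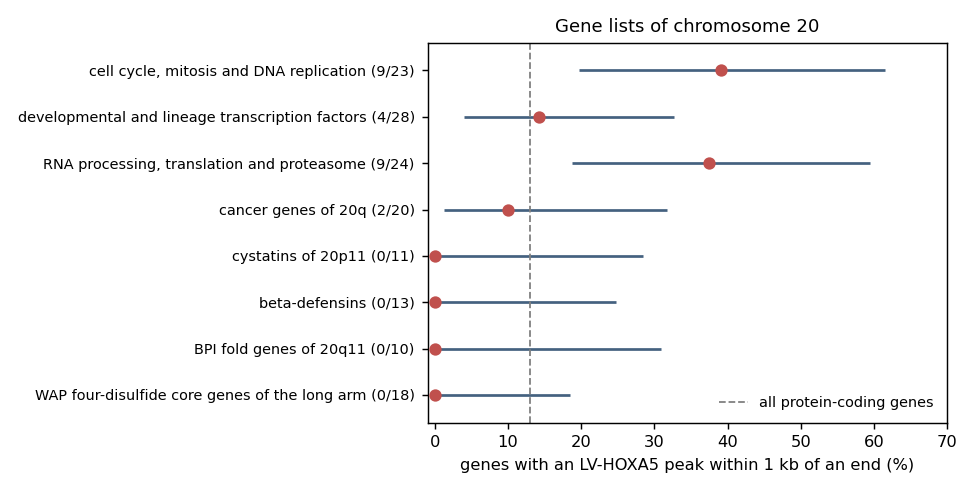
Share of the genes of each chromosome 20 list with an end within 1 kb of an LV-HOXA5 peak (%, red points, with the number of genes in parentheses); lines are exact 95% binomial intervals and the dashed line is the share of all protein-coding genes, 13.0%. The cell cycle list had 9 of 23, the RNA list 9 of 24 and the 4 lists of secreted proteins 0; the lists were drawn up with earlier results of these data known, so the line is a reference level and not a test.

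In the 250 bases before them, start sites with a peak did not hold TAAT more often than others. Only these bases were searched. They do not always lie under the peak, since 23 of the 43 peaks within 1 kb of a listed start covered it. TAAT elsewhere under the peaks was not looked for. On chromosome 20, 384 of the 537 protein-coding genes matched the promoter table, with 512 promoters, and 61 of these, from 51 genes, had their start within 1 kb of an LV-HOXA5 peak. In the 250 bases before the start, TAAT was found on either strand in 18 of the 61 (29.5%, 95% interval 18.5 to 42.6), in 32.6% of the chromosome 20 promoters without a peak and in 40.2% of all autosomal protein-coding promoters of the same length. GGGCGG was found in 57.4% of the 61 and in 54.0% of all, and CCAAT in 34.4% and 32.4%. For these 3 sets of letters the 61 promoters of chromosome 20 did not stand above the rest beyond counting error. On the other autosomes, with far more promoters, those with a peak held GGGCGG in 69.9% against 51.7% without one, CCAAT in 47.3% against 30.2% and TAAT in 35.8% against 41.1%.

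CCGGAA, the ETS core, was found in a larger share of the promoters with a peak, on chromosome 20 as counted here and elsewhere. It was found in 22 of the 61 promoters with a peak (36.1%, 24.2 to 49.4), in 19.7% of the chromosome 20 promoters without one and in 18.1% of all. The promoters of MKKS, LOC128706665 and LOC128706666 are the same 250 bases with CCGGAA. They are counted separately here, so the interval is narrower than separate sequences would give. Its lower end, 24.2%, is close to 23.7%, the upper end for the chromosome 20 promoters without a peak. The difference on chromosome 20 is therefore not resolved. On the other autosomes CCGGAA was found in 27.5% of the promoters with a peak and in 16.6% of those without. The promoters with a peak also had more CpG dinucleotides, with a median of 22 in the 250 bases on chromosome 20 against 17 in those without a peak, at a GC content of 64.8% and 64.0%. CCGGAA itself contains a CpG, and how far base composition moves with these shares was not tested.

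The summits of the start-site peaks lay on both sides of the start, at distances that the choice of peaks within 1 kb of a start limits. Of the 43 chromosome 20 peaks within 1 kb of a listed protein-coding start, 23 covered it. The median summit was 59 bases upstream of the nearest start, written as -59.0, with quartiles of -272 and 93.5 bases. Of these summits 27 lay upstream and 16 downstream, and those of SEC23B and ELMO2 lay past it.

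Of the arm peaks, 125 of 208 lay over 3 kb from every gene end, against 49.6% on the other autosomes. Their median fold enrichment, 4.60, was near the 4.61 of the 65 peaks at gene ends. Among arm peaks without an overlapping LV-HOXA5-NC peak, the highest fold enrichments belonged to distal peaks, which were also the more numerous. Distal means over 3 kb from every gene end, which takes in some peaks at starts listed inside genes, as at BFSP1 and AHCY. The peak at chr20:47894754-47895624 lay 108127 bases from the nearest end of a protein-coding gene, SULF2, which encodes a heparan sulfate sulfatase, and had a pileup of 60 and a fold enrichment of 10.2. A peak 176102 bases from BMP2, a growth factor of the TGF-beta family, had a pileup of 43 and a fold enrichment of 8.35. A peak 168748 bases from FOXA2, a forkhead factor of liver and bile duct development, had a pileup of 39 and a fold enrichment of 8.10. These are the nearest protein-coding genes, with genes of other kinds closer by, and they were chosen after the values were seen; no link between the peaks and their expression was examined.

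A stretch from ZNF217 to CYP24A1 on the long arm held a run of peaks away from gene ends. ZNF217 is a zinc finger oncogene and CYP24A1 the enzyme that inactivates vitamin D, and both lie in a part of the long arm that is often amplified in carcinomas. In 556 kb (chr20:53593932-54149608) there were 12 LV-HOXA5 peaks, 9 of them over 3 kb from every gene end and none within 1 kb of one, and no LV-HOXA5-NC peak. The highest, 19189 bases from CYP24A1 at chr20:54123560-54124349, had a pileup of 50 and a fold enrichment of 8.20. The first of the 12, inside ZNF217 and 3229 bases from its nearer end, lay at a further listed start of that gene, with its summit at -334 bases from it, and so is a promoter peak by that start. The others had pileups of 20 or more, and the local background of the 12 peaks ranged from 2.89 to 5.81 with a median of 4.34. This stretch was singled out after its values were seen, and it starts inside ZNF217 and ends inside CYP24A1. Its peak density was not set against that of other stretches of the same length.

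The local background is the level the peak caller set each peak against. It is the larger of the mean level of the library over the genome, 1.44 fragments in LV-HOXA5, and the density of fragments within the 10000 bp around the peak, and it was recovered from the deposited values as (pileup + 1) / fold enrichment − 1. It rises with any gain of signal over some kilobases, including the spread of strong peaks, and is not a measure of copy number. It is also known only where a peak was called. Over the 333 LV-HOXA5 peaks of chromosome 20 its median was 2.55 fragments, with quartiles of 1.92 and 3.85, and over the peaks of the other autosomes 2.53.

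The background was lower in the middle than in the arms, on chromosome 20 as on the other autosomes. The median background was 2.05 fragments in the central interval (95% interval 1.90 to 2.24), 2.93 on the short arm (2.53 to 3.41) and 3.04 on the long arm (2.79 to 3.42). On the other autosomes it was 2.14 in the central intervals, 2.58 on the short arms and 2.62 on the long arms. The arms of chromosome 20 together, at 3.00 (2.79 to 3.24), were 5th of the 22 autosomes, after chromosomes 21 (4.48), 19 (4.18), 17 (3.74) and 15 (3.06). Between the short and the long arm of chromosome 20 the intervals overlapped.

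Few arm peaks of chromosome 20 stood at the genome-wide level, taken here as a background within 1% of it. There was 1 such peak among 208 (0.481%), at chr20:24430196-24430501 on the short arm, against 5.68% of the arm peaks of the other autosomes. Chromosome 22 had none, and chromosome 18 had the most with 20.2%. In the central interval of chromosome 20 it was 10 of 125 peaks (8.0%), against 19.1% in the central intervals of the other autosomes. This share describes only the lowest peaks.

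The background of the arms was also read by distance from gene ends. Among arm peaks over 3 kb from every gene end the median was 3.05 fragments (2.84 to 3.48) on chromosome 20 and 2.49 on the other autosomes, and among those within 1 kb of a gene end it was 2.60 (2.42 to 3.19) and 2.71. In these pooled values the intervals of chromosome 20 overlapped. On the long arm the peaks away from gene ends had a median of 3.26 (2.94 to 3.85) against 2.47 (2.31 to 3.11) at gene ends. On the short arm the order was the other way round, with 2.79 (2.29 to 3.36) away from gene ends and 3.27 (2.53 to 3.91) at them. On both arms the intervals overlapped, so neither order is resolved.

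Along the arms the background varied from bin to bin. The medians of 5 Mb bins do not show the short stretch of high values beside the central interval, which is described below with the LV-HOXA5-NC peaks. The highest medians were those of the bins from 0 to 5 Mb, 3.85 fragments over 21 peaks, and from 50 to 55 Mb, 3.83 over 24 peaks. The lowest were those of the bins from 10 to 15 Mb, 2.28 over 24 peaks, and from 40 to 45 Mb, 2.48 over 14 peaks. The highest was 1.69 times the lowest. The 2 highest bins differed in gene content: the bin at the tip of the short arm had 81 protein-coding genes and the bin from 50 to 55 Mb, which includes the run of peaks from ZNF217 to CYP24A1, had 24. Over peaks more than 3 kb from gene ends, the medians of these bins were 3.24 (10 peaks) and 4.23 (16 peaks). The bin from 50 to 55 Mb was thus high also over 3 kb from gene ends, where some of its peaks lay inside genes, and whether this reflects more DNA, more open chromatin or the spread of neighbouring peaks was not tested.

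**Figure D4:**
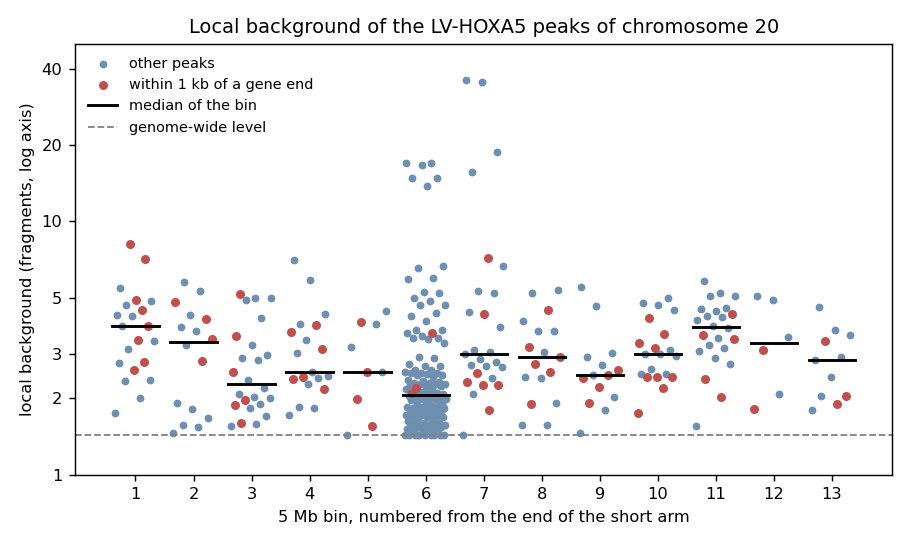
Local background (fragments, log axis) of each of the 333 LV-HOXA5 peaks of chromosome 20 by 5 Mb bin, numbered from the end of the short arm; red points are peaks within 1 kb of a gene end, black bars the medians of the bins and the dashed line the genome-wide level of 1.44. Most peaks of bin 6 lay between the line and 3 fragments, and the highest values, up to 35.9, lay in bin 7 beside the central interval.

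Most peaks of the central interval had low pileups, and a few were very strong. Their median pileup was 15 fragments, against 18 in the arms, and their median fold enrichment 4.74 against 4.60. Crowding was greatest between 26 and 29 Mb, where 109 of the 125 peaks lay. The fullest megabase, from 27 to 28 Mb, held 46 peaks, none of them within 1 kb of a gene end. The interval holds 64 annotated genes of any kind, of which 42 are pseudogenes and 20 lncRNA genes.

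The 3 gene-end peaks of the interval were at its edge or at pseudogenes. The one at ZNF337, which bounds the interval, had its summit 16 bases upstream of the start and so fell just inside. The others were at FRG1CP and FRG1EP, transcribed pseudogenes of the FRG1 family, with pileups of 13 and 23. Apart from ZNF337, which was also named as a gene-end peak, these were named after their values were seen.

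The strongest peak of the whole chromosome was in this interval, at chr20:28307923-28308490. Its pileup was 155 (95% Poisson interval 132 to 181) and its fold enrichment 24.9, and the overlapping LV-HOXA5-NC peak had a pileup of 24. The next by fold were at chr20:26541566-26542445 with a pileup of 49 and a fold enrichment of 11.2, and at chr20:30283654-30284159, 2378 bases from the lncRNA gene LINC01597, with a pileup of 40 and a fold enrichment of 10.2. Both had an overlapping LV-HOXA5-NC peak. Of the 5 highest, the peaks at chr20:26552543-26552905 (pileup 26, fold enrichment 9.65) and chr20:26483062-26483556 (pileup 37, fold enrichment 8.39) followed, and the former had none in LV-HOXA5-NC.

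Compared with the central intervals of the other autosomes, that of chromosome 20 was crowded with peaks of lower pileup and fold enrichment. By share of peaks it was 2nd of the 22, after chromosome 22 (45.2%) and before chromosomes 10 (29.6%) and 19 (29%); on chromosomes 13, 14, 15 and 22 the interval takes in most of the short arm, so their values are less comparable. By peaks per Mb its 24.4 was 4th, and chromosome 10 was highest with 35.0. Its peaks had a median pileup of 15 and fold enrichment of 4.74, while those of the other central intervals had 19 and 5.83. Repeats were not annotated here, so peaks in satellite arrays and peaks in other sequence of the interval cannot be told apart.

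LV-HOXA5-NC peaks gathered near the centromere as well. Of the 25, 11 were in the central interval (44.0%, 95% interval 24.4 to 65.1), 4 on the short arm and 10 on the long arm, and 6 of the 10 lay in the stretch between LOC124904970 and DEFB115, the first of a cluster of beta-defensin genes. The central share was near the 42.4% that was the median of the other autosomes. The only peak within 1 kb of a gene end, at chr20:63919546-63919875 with a pileup of 7, overlapped the end of the microRNA gene MIR941-2, inside DNAJC5 and 560 bases from an end of the predicted gene LOC124904951, and was named after its value was seen. No LV-HOXA5-NC peak of the chromosome lay within 1 kb of a listed protein-coding start, against 43 LV-HOXA5 peaks. The libraries differed in depth as well as in condition, and which of these accounts for the absence was not tested.

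Overlap between the lists was high on the side of LV-HOXA5-NC and low on that of LV-HOXA5. Of the 25 LV-HOXA5-NC peaks, 18 had a base or more in common with an LV-HOXA5 peak (72.0%, 95% interval 50.6 to 87.9), beside 70.7% of the whole list. Of the 333 LV-HOXA5 peaks, 19 shared a base with an LV-HOXA5-NC peak (5.71%, 3.47 to 8.77), beside 5.52% of the whole list. Both shares were near those of the whole lists, and chromosome 20 was not particular in them.

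The shares differed by position, on chromosome 20 as on the other autosomes. In the central interval all 11 LV-HOXA5-NC peaks overlapped an LV-HOXA5 peak, against 92.0% on the other autosomes, and in the arms 7 of 14 did, against 48.8%. In LV-HOXA5, 12 of the 125 central peaks were shared (9.60%, 5.06 to 16.2), against 19.5% in the central intervals of the other autosomes, and 7 of the 208 arm peaks (3.37%, 1.36 to 6.81), against 2.30%. None of the 65 gene-end peaks of the arms was shared, and with 1.79% shared on the other autosomes this number is too small to set chromosome 20 apart. The shared central peaks were tall, with a median pileup of 52.0 against 14 in the 113 that were not shared.

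The 5 LV-HOXA5-NC peaks of highest fold enrichment outside the central interval were mostly at its edge. The highest, at chr20:31241575-31241928 and 15736 bases from DEFB115, had a pileup of 51 and a fold enrichment of 13.5, and the LV-HOXA5 peak over it had a pileup of 79 and a fold enrichment of 14.9. In the same stretch, chr20:31157417-31158453 had a pileup of 31 against 41 in LV-HOXA5, and chr20:31201320-31201618 had a pileup of 14 with no LV-HOXA5 peak. The other 2 were far from it. The peak at chr20:64286835-64287366, near the tip of the long arm and 3019 bases from the pseudogene SEPTIN14P20, had a pileup of 29 against 59. The peak at chr20:16288567-16288870, inside the kinesin gene KIF16B on the short arm, had a pileup of 11 against 25.

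At all 18 shared regions the LV-HOXA5-NC pileup was higher than the library totals alone would give. It was between 15.5% and 76.9% of the LV-HOXA5 pileup, with a median of 48.4%, while the ratio of the totals was 12.4%. Relative to the totals the median was 3.92, with a range from 1.25 to 6.23. The lowest of these was the strongest peak of the chromosome, with pileups of 24 and 155. Since a region enters this set only if it was called in the smaller library, a high LV-HOXA5-NC pileup was a condition of entry, and the ratios are a description of the regions chosen.

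**Figure D5:**
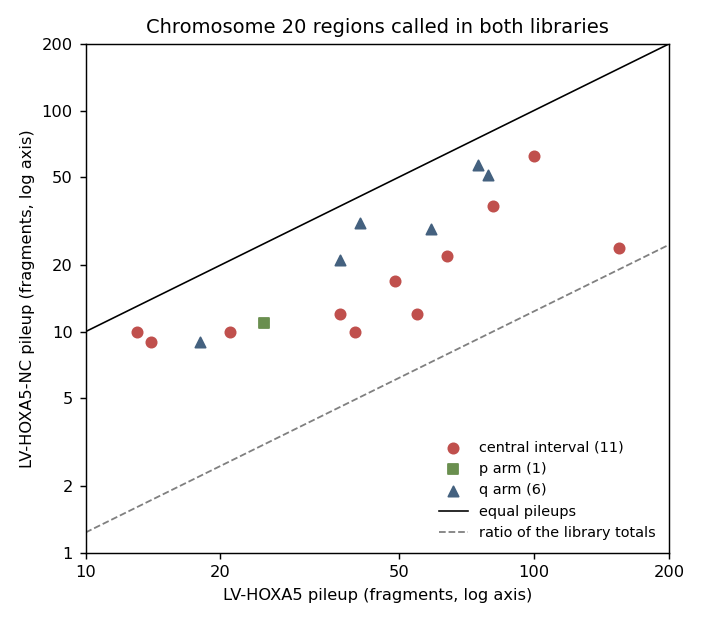
Pileup (fragments, log axes) in LV-HOXA5 and LV-HOXA5-NC at the 18 chromosome 20 regions called in both libraries, by place on the chromosome. All points lay below the line of equal pileups and above the dashed line, which marks the ratio of the library totals, 12.4%.

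The stretch from LOC124904970 to DEFB115 (chr20:30815093-31257663) had a higher median background than the central interval and the rest of the arm. It held 8 LV-HOXA5 and 6 LV-HOXA5-NC peaks, and 4 of each overlapped. The local background of the 8 LV-HOXA5 peaks ranged from 2.87 to 35.9 fragments with a median of 11.1, and their pileups from 12 to 86. With the interval extended up to DEFB115, an alternative added after the data were seen, the arms kept 200 LV-HOXA5 peaks, of which 32.5% were at a gene end, with a median background of 2.98. Of the LV-HOXA5-NC peaks, 17 of 25 then lay in the extended interval and 8 in the arms. On the rest of the long arm, LV-HOXA5 peaks over 3 kb from gene ends had a median background of 3.09 (2.84 to 3.72), so the value of the long arm did not rest on this stretch alone.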

How the data were processed

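CUT & Tag libraries of TFK-1 cells were grouped by the treatment in the sample labels, with 1 library each for LV-HOXA5 and LV-HOXA5-NC. The submitters' processing notes name fastp, Bowtie2, deepTools, MACS2, ChIPseeker and GRCh38. Other experiments of the study were not analysed here. MACS 2.2.7.1 was run by the authors per library, with no control library, a q-value threshold of 0.05 and both reads of each fragment. In the deposited tables the pileup is a signal in fragments without depth scaling, the fold enrichment a ratio to the local background, and the p-value and q-value are −log10 values. An integer score is added in the authors' second form, which served only to compare positions; all 333 and 25 peaks were the same.

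Peaks were assigned by summit to 5 Mb bins, to the central interval and to the arms on either side of it. The central interval was the stretch between protein-coding genes around the arm boundary at 28 Mb. By edge, peaks were assigned to the ends of RefSeq genes (GRCh38.p14). Named were the 10 peaks of highest fold at protein-coding gene ends, up to 4 genes per list by pileup, the 5 highest central peaks, the 5 highest LV-HOXA5-NC arm peaks and the 2 highest and 2 lowest bins by background. The members and lists were chosen with earlier results of these data known. No test between conditions was made. Intervals are 95% binomial, Poisson or, for medians, order-statistic intervals. Alternative settings were a stricter q-value (0.001), only peaks from the list median of fold upwards, peaks without a control peak, other gene-end distances, windows, bins and overlaps. Functions were tested on simulated data. Python 3.11.15, NumPy 2.4.6, SciPy 1.17.1, pandas 2.3.3 and Matplotlib 3.10.9 were used.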

Additional observations from a re-analysis of the deposited data

How the results depend on the processing

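Of 63 comparisons with an alternative setting, 49 gave a share or median within the interval of the main value, or a count within 1.5 times of it. When only peaks from the list median of fold enrichment upwards were kept, 147 LV-HOXA5 peaks (2.29 per Mb and 27.4 per 100 protein-coding genes) and 13 LV-HOXA5-NC peaks were left, by construction. Without the central interval, a setting added after the data were seen, there were 208 LV-HOXA5 peaks (38.7 per 100 protein-coding genes) and 14 LV-HOXA5-NC peaks, the gene-end share was 31.2%, the median background 3.00, and the overlap shares 3.37% of LV-HOXA5 and 50.0% of LV-HOXA5-NC peaks. The gene-end share was 26.4% within 3 kb and 15.3% for protein-coding genes only, and the central share was 49% of the peaks over 3 kb from gene ends, both by construction. Without CDS2 and RPN2, left out after the data were seen, 20 list genes had a peak in place of 22. LV-HOXA5-NC held 12.4% as many fragments as LV-HOXA5, and what this difference in depth does to its peaks was not tested.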
